A study of Homo sapiens with 4 samples.

Results

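Cytosolic ribosomal protein genes are the 77 genes on the autosomes and the X chromosome whose symbols name a protein of the small subunit (31 RPS genes) or of the large subunit (46 RPL genes), out of 63677 genes in the count files. They were picked by symbol alone, and pseudogenes and paralogs with an L suffix were left out. All 77 passed the filter on low counts and were among the 15398 genes tested.

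The data are RNA-seq of poly(A) RNA from IMR90, a line of normal human lung fibroblasts. The 2 control libraries came from cells given a non-targeting siRNA, and the 2 HMGB1 knockdown libraries from cells given siRNA against HMGB1, an abundant chromatin and RNA-binding protein. Isolate I90-10 gave replicate 1 of each group and isolate I90-79 gave replicate 2, all at passage 5, and cells of both groups were collected 72 h after transfection with RNAiMAX. The comparison asks which mRNAs differ between fibroblasts given control siRNA and fibroblasts with HMGB1 knocked down. With 2 libraries in each group, an exact permutation test of a single value cannot give a two-sided p below 0.33, and p-values cover only the spread between these isolates and cultures.

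The ribosome is built from ribosomal RNA and a single copy of nearly every ribosomal protein, so cells make these proteins in matched amounts. Their mRNAs are short, abundant and long-lived, and most begin with a 5′ terminal oligopyrimidine (TOP) tract, a C at the cap followed by an unbroken run of C and T. Through this tract the kinase mTORC1 and the cap-binding protein LARP1 set how much of the mRNA is translated, while growth signals such as MYC act on transcription of the genes. Free RPL5 and RPL11 bind the ubiquitin ligase MDM2 when ribosome assembly fails. The values below are mRNA levels and carry no information on translation or on the protein.

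The start sites of the genes that moved most to either side are shown because the TOP tract is the feature by which these mRNAs are regulated together. Each line gives 30 bases of the RefSeq record on GRCh38.p14, from 10 bases before the listed start to 20 bases from it on, read 5′ to 3′ on the strand of the gene, with the longest run of C and T in capitals. RPS15 (chr19:1438386-1438415, plus strand), RPL17 (chr18:49492446-49492475, minus), RPL41 (chr12:56116623-56116652, plus) and RPS23 (chr5:82278335-82278364, minus) had the highest log2-fold changes. RPS27 (chr1:153990752-153990781, plus), RPS12 (chr6:132814559-132814588, plus) and RPL36A (chrX:101391001-101391030, plus) had the lowest among genes with a record. RPS6 (chr9:19380217-19380246, minus) and RPL13A (chr19:49487598-49487627, plus) are abundant genes with intermediate and high values (0.22 and 0.31), and EIF2S3 (chrX:24054946-24054975, plus) and RPS27L (chr15:63157458-63157487, minus) are no ribosomal protein genes of the symbol rule and are compared with them below.
RPS15: aggcgcggaccaaagcgaTCTCTTCTgagg
RPL17: TTCCCTaagcagcctgaggtgagtgtttct
RPL41: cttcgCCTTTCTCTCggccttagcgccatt
RPS23: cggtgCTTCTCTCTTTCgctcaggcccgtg
RPS27: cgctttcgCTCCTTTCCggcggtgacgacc
RPS12: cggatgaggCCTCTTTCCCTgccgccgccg
RPL36A: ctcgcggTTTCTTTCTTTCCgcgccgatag
RPS6: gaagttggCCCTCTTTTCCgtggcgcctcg
RPL13A: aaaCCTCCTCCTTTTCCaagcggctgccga
EIF2S3: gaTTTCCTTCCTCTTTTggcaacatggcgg
RPS27L: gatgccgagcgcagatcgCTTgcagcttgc

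The run can include bases before the listed start. It reached 12 bases in RPS23, 11 in RPS12 and RPS6, 13 in RPL36A, 14 in RPL13A and 15 in EIF2S3. In RPS27L it was 3 bases long. Of the 77 genes, 62 had a record in the RefSeq table. A C followed by at least 4 further pyrimidines, with the C within 5 bases of the listed start, was found in 53 of them (85.5%) and in 25.2% of all 27305 genes of the table. The letters CTTTC, which can lie inside such a run, stood between 30 bases before and 50 bases after the start on the sense strand in 56.5% of them, compared with 12.0% of all genes. The letters CCGGAAG, searched on both strands of the whole 300 bases, were present in 35.5% compared with 12.2%, and TATAAA in the 40 bases before the start in 3.23% compared with 3.09%. The median log2-fold change upon knockdown was 0.17 for the 53 genes with the pyrimidine match and 0.20 for the 9 without. RPS15 and RPL17 had no match within 5 bases of the listed start, and in RPS15 a run of 8 began 8 bases downstream of it.

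Facts of the libraries that bear on these genes are few. Total counted reads were between 29861687 and 35317010 per library. HMGB1 itself had 181 and 237 CPM (counts per 1e6 reads of the library size after TMM scaling) in the controls and 16.0 and 18.9 in the knockdowns, a log2-fold change of −3.59 (SE 0.19, edgeR adjusted p = 0.00751). All 9 fibroblast markers checked were detected, with a summed level of 45263 and 23178 CPM in the controls and 38275 and 24060 in the knockdowns, lower in I90-79 than in I90-10 in both groups. In the main test 0 of the 9 were called. With the replicate block, 1 was called up and 3 down, compared with 6.68% of all genes tested up and 7.84% down. The 5 immune markers summed to at most 0.173 CPM, and CD3E, LYZ and the endothelial CDH5 were at 0 in all libraries. The 6 epithelial markers summed to 64 and 68.0 CPM in the controls and 82.0 and 99.1 CPM in the knockdowns, most of it KRT18 (39.5 and 52.8 compared with 65.9 and 88.8 CPM), with CDH1 at no more than 0.034 CPM. The 4 endothelial markers found summed to 150 and 149 compared with 136 and 135 CPM, nearly all of it TEK. With the block, KRT18 (adjusted p = 0.000954) and VWF, an endothelial marker at 1.36 and 0.923 CPM in the controls and 4.16 and 2.59 CPM in the knockdowns (adjusted p = 0.00357), were called up. The part of the markers in the results was not tested.

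Ribosomal protein mRNAs made up 5.22% and 5.23% of all counted reads in the control libraries of I90-10 and I90-79, and 6.13% and 5.43% in the knockdown libraries of the same isolates. The mean share was 5.23% ± 0.00653 (SD, n = 2) in the controls and 5.78% ± 0.498 (SD, n = 2) in the knockdowns. Both knockdown libraries lay above both controls, but the difference of 0.551 percentage points was about as large as the SD of the knockdown group. Small-subunit genes held 1.96% in each control and 2.29% and 2.02% in the knockdowns, and large-subunit genes 3.26% and 3.27% compared with 3.84% and 3.41%. After scaling of the libraries with TMM, the summed level was 1.19 times the control in I90-10 and 1.08 times in I90-79. In the bulk RNA, more RNA of these genes per cell and fewer reads on all other genes cannot be told apart.

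**Figure D1:**
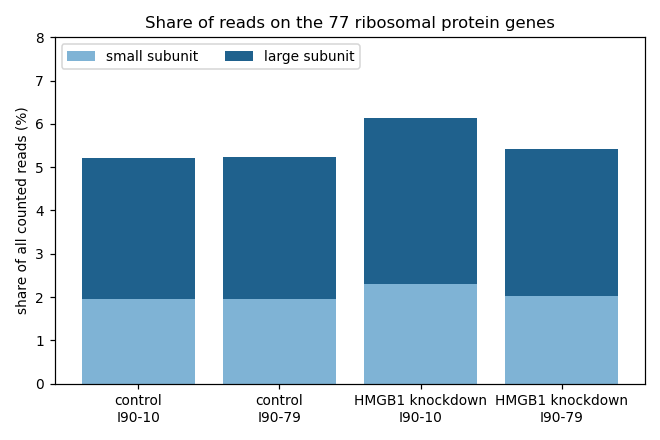
Share of all counted reads (%, y axis from 0) on the small-subunit (light) and large-subunit (dark) ribosomal protein genes in each of the 4 libraries. The totals are 5.22% and 5.23% in the controls, 6.13% in the knockdown of I90-10 and 5.43% in that of I90-79.

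The levels spanned a wide range. The mean control level was 593 CPM in the median gene, 73 of the 77 genes had at least 100 CPM and 13 had at least 1000 CPM. Per kilobase of the exonic length in the files, the control mean had a median of 187 and was highest in RPS12 with 987 CPM per kb. That length covers all annotated exons of a gene and is not the length of its mRNA. It was 767 bases in RPS12 (399 coding) and 6679 bases in RPS15A (393 coding). The order of the genes on this scale therefore depends in part on the annotation. After RPS12, of the head of the small subunit, followed RPL13A (851), which is also known from a complex that silences inflammatory mRNAs, and then RPS18 (664) and RPS2 (638 CPM per kb) of the small subunit. RPS15A (34.4), RPS10 (19.5), RPL17 (12.1) and RPL36A (1.36 CPM per kb) were near the bottom.

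The low values have to be read with what unique mapping can count. Ribosomal protein genes have 1576 annotated pseudogenes in the files, many of them near-exact copies. Of all 50-base pieces of the coding sequence, the share found elsewhere in the genome was 100% in 8 genes (RPL21, RPL36A, RPL39, RPL41, RPS10, RPS26, RPS27 and RPS28), and 90.1% in RPL17, but 42.6% in RPS12 and 4.7% in RPL11. In addition, 32% of the exonic bases of RPL17 and 28.9% of those of RPS10 overlapped another gene on the same strand. Across the 77 genes, the control level per kb and this share had a Spearman rho of −0.08 (n = 77, over genes of the same libraries, a description). Hence the order of the levels is uncertain for genes with near-identical copies, and the comparison between groups uses the same countable bases of a gene in every library. Reads counted on the pseudogenes themselves were 0.054% and 0.0516% of the total in the controls and 0.0659% and 0.0554% in the knockdowns.

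Upon HMGB1 knockdown, no ribosomal protein gene passed the thresholds in either direction (edgeR, adjusted p below 0.01 and absolute log2-fold change above 0.6), while 0.0649% of all genes tested were called up and 0.136% down. However, the log2-fold changes were nearly all of one sign and small. They were above 0 in 73 of the 77 genes and below 0 in 4, compared with 49.6% and 50.4% of all genes tested, with a median of 0.17, which is 1.12-fold, an interquartile range of 0.11 to 0.26 and extremes of −0.26 and 0.55. The median over all genes tested was −0.005. Abundant genes outside the family, 835 with a mean level of 200 CPM or more, had a median of 0.08, and 57.6% of them were above 0. The small subunit had a median of 0.17 (28 of 31 above 0) and the large subunit one of 0.18 (45 of 46 above 0). At an unadjusted p below 0.05 there were 4 genes higher (RPS15, RPL17, RPL41 and RPL26, the last named after its value was seen) and 0 lower, 5.19% of the family, compared with 13.6% of all genes higher and 14.7% lower.

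**Figure D2:**
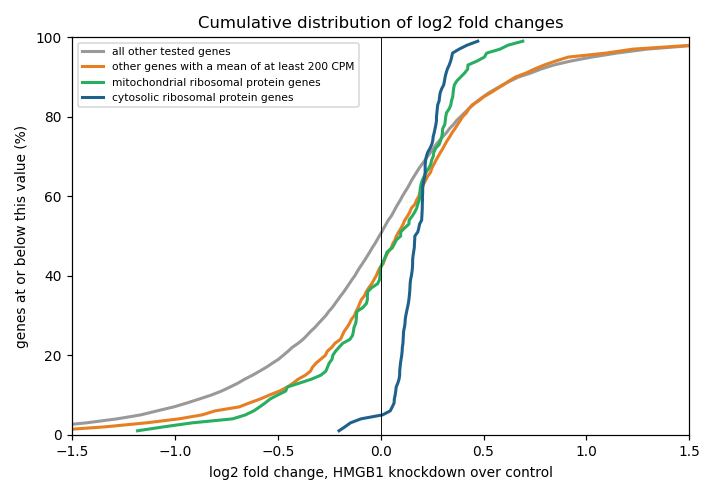
Cumulative share of genes (%, y axis) against the log2-fold change of HMGB1 knockdown over control (x axis) for cytosolic ribosomal protein genes, mitochondrial ribosomal protein genes, other genes with a mean level from 200 CPM up, and all other tested genes. The curve of the cytosolic ribosomal protein genes is steep, with a median of 0.17 and 4 of 77 genes below 0, and the other curves are wider, with medians of 0.10, 0.08 and −0.007.

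Each isolate occurs in both groups, so a fit with a term for the isolate (replicate block) was also made, and again 0 of the 77 genes were called, compared with 6.68% of all genes tested called up and 7.84% down. In this fit, 23 of the genes had an unadjusted p below 0.05, all of them higher, compared with 21.6% of all genes higher and 22% lower. The adjusted p was below 0.05 for 9 genes, RPS15, RPL17, RPL41, RPS23, RPS9, RPL19, RPL26, RPL35 and RPL23A, all higher (compared with 15.9% of all genes tested higher and 16.3% lower). Among them only that of RPS15 was below 0.01, at a log2-fold change of 0.54 under the threshold of 0.6. RPS9 and RPL23A are named after their values were seen. The study's methods name RUVs of the RUVseq package, followed by DESeq2. Here RUVs was rewritten with 1 factor and all genes as controls, without that package, and followed by DESeq2. It gave 0 called genes of the family, compared with 4.97% of all genes up and 5.39% down, and a median of 0.25. In this fit 32 of the 77 genes had an unadjusted p below 0.05, all higher, compared with 13.6% of all genes higher and 12.4% lower.

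The isolates differed in the size of the shift. In I90-10, 75 of the 77 genes were above 0 with a median log2-fold change of 0.24, and in I90-79, 68 with a median of 0.10. In both isolates 68 genes (88.3%) were above 0 and 2 below 0, compared with 38.9% and 39.4% of all genes tested, and 71 genes had the larger value in I90-10. The highest of the 4 libraries was the knockdown of I90-10 for 74 genes. Within the knockdown group, I90-79 was lower than I90-10 in 76 of 77 genes, by a median of −0.22 on the log2 scale, and within the controls in 59 of 77, by −0.08. The gap between the knockdown libraries was therefore at least as large as the change upon knockdown, and 29 genes had an absolute log2-fold change above their own gap. Without knockdown replicate 1, 54 genes were above 0 and the median was 0.06, and without knockdown replicate 2 it was 0.29 with 75 genes above 0. The groups did not overlap in CPM for 40 genes that were higher (51.9%) and 1 that was lower in the knockdowns (RPS12), compared with 29.8% and 30.2% of all genes tested and 41.0% higher among the abundant genes outside the family.

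**Figure D3:**
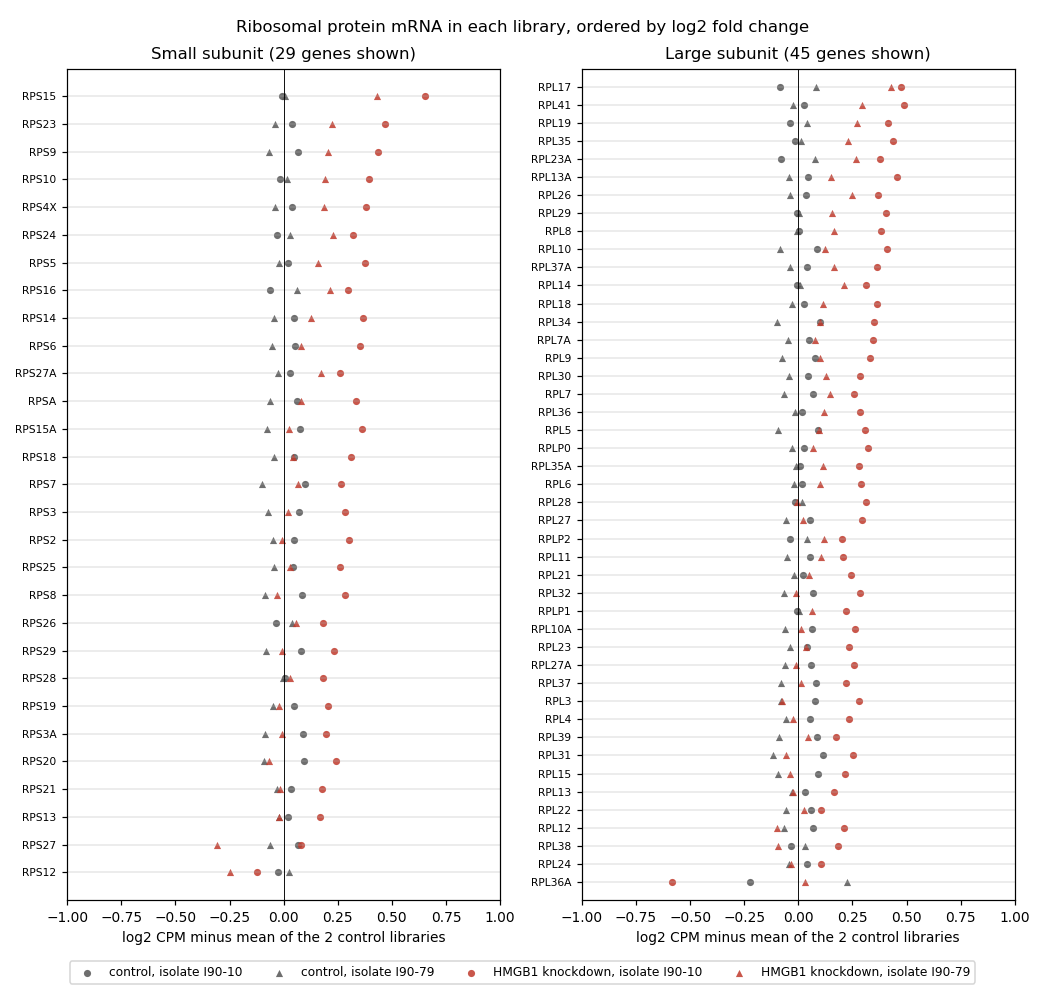
Log2 CPM of each ribosomal protein gene minus the mean of its 2 control libraries (x axis), in each of the 4 libraries, for 29 small-subunit (left) and 45 large-subunit genes (right), ordered by log2-fold change. Grey symbols are controls, red symbols knockdowns, circles I90-10 and triangles I90-79. Red circles lie farthest right in most genes, and RPS12, RPS27 and RPL36A have a log2-fold change below 0.

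RPS15, of the head of the small subunit beside the decoding site, had the highest log2-fold change. Its level was 273 and 276 CPM in the controls and 431 and 370 CPM in the knockdowns. The knockdown libraries lay well above both controls, which were nearly equal, and the log2-fold change was 0.55 (SE 0.14, adjusted p = 0.0711, edgeR). It was 0.66 in I90-10 and 0.42 in I90-79, and the adjusted p was 0.00528 with the replicate block.

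RPL17, at the rim of the tunnel through which the new protein leaves, had 27.9 and 31.3 CPM in the controls and 41.1 and 39.8 CPM in the knockdowns. The groups did not overlap, and the log2-fold change of 0.45 (SE 0.12, adjusted p = 0.0866) rests on the part of its reads that map uniquely. RPL41, the shortest ribosomal protein with 25 residues, had 306 and 295 CPM compared with 421 and 368 CPM, a log2-fold change of 0.39 (adjusted p = 0.130). RPS23, of the decoding centre, had 379 and 359 CPM compared with 510 and 430 CPM, a log2-fold change of 0.35 (adjusted p = 0.190). Also RPL19 (1127 and 1192 compared with 1545 and 1398 CPM, 0.34) and RPL35 (446 and 455 compared with 611 and 528 CPM, 0.34) were higher in both knockdown libraries. Both lie at the exit of the tunnel. The 9 genes fixed as the tunnel and its rim had a median log2-fold change of 0.31, with extremes of 0.07 and 0.45. All 9 were above 0 in both isolates, as were 88.3% of the whole family. The difference from the family median of 0.17 was not tested. None of the 9 was called.

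The genes at the other end were few. RPS12 had 744 and 770 CPM in the controls and 695 and 638 CPM in the knockdowns. It was the only one of the 77 genes lower in the knockdown libraries without overlap, with a log2-fold change of −0.18 (SE 0.14, adjusted p = 0.420) that stayed between −0.25 and −0.12 whichever library was left out. RPL36A, beside the exit site of the transfer RNA, had 4.53 and 6.19 CPM compared with 3.53 and 5.41 CPM, and a log2-fold change of −0.26 (SE 0.31, adjusted p = 0.619), so its groups overlapped. RPS27, a zinc-finger protein of the small subunit, had 602 and 550 CPM compared with 609 and 465 CPM. Its log2-fold change was 0.02 in I90-10 and −0.24 in I90-79. RPL24, which bridges the subunits, was at 0.04 and RPL38 at 0.05 on the log2 scale, each within its SE of 0.13 and 0.14.

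The other structural groups follow, and their differences from the family as a whole were not tested. The 3 genes fixed as near the peptidyl transferase centre, RPL3, RPL8 and RPL10, had a median log2-fold change of 0.27. RPL3 (0.11) and RPL8 (0.28) are named after their values were seen. The lateral stalk, which recruits the translation factors, is formed by RPLP0, RPLP1 and RPLP2 on the base protein RPL12. RPLP0 had 1960 and 1884 CPM in the controls and 2404 and 2017 CPM in the knockdowns (log2-fold change 0.20). RPLP1 had 1091 and 1098 compared with 1273 and 1142 CPM (0.14), RPLP2 431 and 455 compared with 509 and 481 CPM (0.16), and RPL12 764 and 696 compared with 845 and 682 CPM (0.07). The knockdown libraries lay above both controls for the 3 P proteins and not for RPL12. None of the 4 had an adjusted p below 0.455.

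RPL5 and RPL11, the proteins of the 5S particle that can bind MDM2, had nearly equal changes in the isolates. RPL5 was at 934 and 822 CPM in the controls and 1086 and 937 CPM in the knockdowns, with 0.22 in I90-10 and 0.19 in I90-79. RPL11 was at 829 and 771 compared with 922 and 860 CPM, with 0.15 and 0.16. In the list fixed for the MDM2 link, CDKN1A, a cell cycle inhibitor, had 1118 and 1095 compared with 1307 and 1441 CPM (log2-fold change 0.31, adjusted p = 0.229), and it was not called.

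Of the 4 X-linked genes, RPS4X had 1208 and 1142 CPM in the controls and 1529 and 1335 CPM in the knockdowns (0.29), and RPL10, which completes the large subunit near the peptidyl transferase centre, 1266 and 1126 compared with 1586 and 1302 CPM (0.27). RPL39, of the narrow part of the tunnel, had 132 and 117 compared with 140 and 128 CPM (0.11), and RPL36A is given above. The groups did not overlap for RPS4X and RPL10. Among proteins with further roles, RPS6, the substrate of the S6 kinases, had 1307 and 1213 compared with 1606 and 1330 CPM (0.22). RPSA, also known as a laminin receptor, had 992 and 908 compared with 1198 and 1003 CPM (0.21), RPS3, which also acts in DNA repair, 1082 and 979 compared with 1253 and 1044 CPM (0.16), and RPS27A, made as a fusion with ubiquitin, 750 and 722 compared with 880 and 829 CPM (0.22). RPL22 had 274 and 253 compared with 283 and 268 CPM (0.07), among the smallest values. None of these genes had an adjusted p below 0.284.

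The remaining groups are given by their medians. The 14 genes fixed for the head of the small subunit had a median log2-fold change of 0.15 with 12 above 0, and the 19 genes mutated in Diamond-Blackfan anemia, an inherited failure of red cell formation, one of 0.16 with 17 above 0. Genes with a snoRNA gene on the same strand between their start and end (29) had a median of 0.14, and the 48 without one of 0.20. Coding length (Spearman rho 0.22), control level per kb (0.05), the share of 50-base pieces found elsewhere (−0.08) and the number of annotated pseudogenes (−0.07) had little relation to the log2-fold change over the 77 genes, which share their libraries. In the 20 genes with under 25% of pieces found elsewhere the median was 0.20 and all 20 were above 0, and in the 22 genes with at least 75% it was 0.16 with 20 above 0. The genes lie on 21 chromosomes, 12 of them on chromosome 19.

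Ribosomal proteins that the symbols do not name had values of the same size. FAU, a fusion of a ubiquitin-like protein with RPS30, had 209 and 206 CPM in the controls and 290 and 244 CPM in the knockdowns (log2-fold change 0.37, adjusted p = 0.156). RACK1, a scaffold on the small-subunit head that is named after its value was seen, had a log2-fold change of 0.19. Ribosomal protein genes of the mitochondria, which form another ribosome, had a median of 0.10, with 43 of 75 tested genes above 0 and a much wider range, from −1.34 to 0.84.

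Paralogs with an L suffix were lower in level than the genes of the symbol rule in 5 of the 6 pairs tested, on the scale of control CPM per kb. RPL22L1 had 28.2 and RPL22 53.7, RPS27L 42.6 and RPS27 609, RPL7L1 20.1 and RPL7 264, RPL26L1 25.8 and RPL26 88.4, and RPL39L 8.62 and RPL39 58.1 CPM per kb. The exception was RPL36AL with 177 and RPL36A with 1.36 CPM per kb, where no 50-base piece of the RPL36A coding sequence is unique. RPL3L and RPL10L had at most 2 counts in any library.

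RPS27L had the opposite sign to most ribosomal protein genes. It had 189 and 155 CPM in the controls and 140 and 127 CPM in the knockdowns. Both knockdown libraries lay below both controls, the log2-fold change was −0.37 (SE 0.14, adjusted p = 0.177) and the adjusted p 0.0223 with the replicate block, which did not reach the threshold of 0.01. RPL22L1 had 67.0 and 64.1 compared with 82.0 and 71.9 CPM (0.23, adjusted p = 0.271). The log2-fold change was 0.06 for RPL7L1, 0.17 for RPL26L1, 0.15 for RPL36AL and 0.14 for RPL39L, compared with 0.20 for RPL7, 0.31 for RPL26, −0.26 for RPL36A and 0.11 for RPL39.

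**Figure D4:**
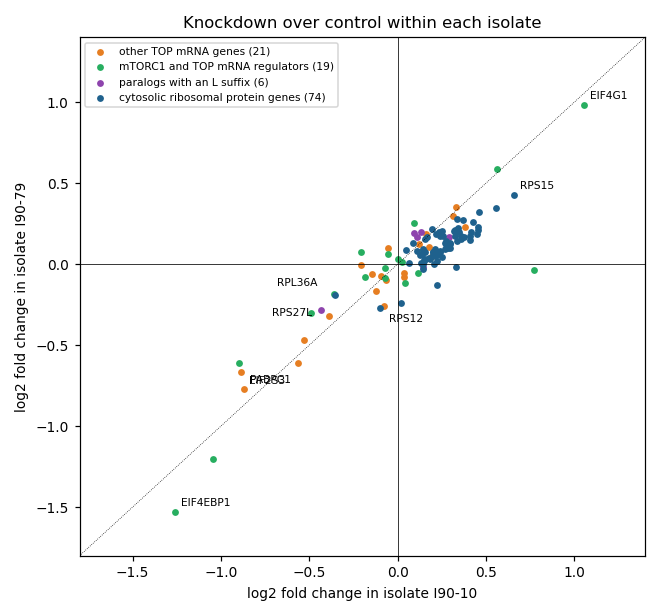
Log2-fold change of HMGB1 knockdown over control in isolate I90-79 (y axis) against isolate I90-10 (x axis) for 74 cytosolic ribosomal protein genes, 21 other TOP mRNA genes, 19 regulators of mTORC1 and TOP mRNAs and 6 paralogs with an L suffix. Each point is 1 gene with 1 library per group and isolate, and the dotted line marks equal values. Of the ribosomal protein genes shown, 68 lie below the line.

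Other mRNAs that begin with a TOP tract did not share the sign. Of 21 tested genes of this class outside the ribosome, among them translation factors and snoRNA hosts, 8 were above 0 and the median log2-fold change was −0.08. PABPC1, the poly(A)-binding protein, had 816 and 733 CPM in the controls and 446 and 429 CPM in the knockdowns, a log2-fold change of −0.82 (SE 0.14, adjusted p = 0.0310). EIF2S3, a subunit of the initiation factor that carries the first transfer RNA, had 231 and 195 compared with 125 and 123 CPM (−0.78, SE 0.13, adjusted p = 0.0320). Neither was called in the main test, and both were called down with the replicate block, at an adjusted p of 0.000571 and 0.000886. The pyrimidine run of EIF2S3, printed above, had 15 bases but began at −8 relative to the listed start. The runs of RPL36A, RPS6 and RPS12, of 13, 11 and 11 bases, began at −3, −2 and −1. The run lengths therefore do not rank the transcribed tracts. Of the 21 genes, 0 were higher and 4 were lower at an unadjusted p below 0.05 (13.6% and 14.7% of all genes tested), the others being the snoRNA hosts SNHG8 (−0.59) and GAS5 (−0.50), which are named after their values were seen. With the replicate block, 3 were higher and 5 lower at this cut, compared with 21.6% and 22% of all genes. The 3, also named after their values were seen, were NPM1 (0.34), EIF4B (0.30) and EEF1D (0.30), with block adjusted p of 0.0272, 0.0391 and 0.0446 and no call. The elongation factors EEF2 (0.17) and EEF1A1 (−0.14) were within the SE of 0.20 and 0.23.

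Among 19 tested genes of mTORC1 and of the proteins that act on TOP mRNAs, 9 were above 0 with a median of −0.05, and the smallest p-values were those of a pair of genes of translation initiation. EIF4EBP1, the repressor of cap-dependent initiation that mTORC1 inactivates, had 58.1 and 58.3 CPM in the controls and 24.2 and 20.2 CPM in the knockdowns. The log2-fold change was −1.39 (SE 0.14, adjusted p = 0.0127), above the threshold of 0.01, and the gene was called down with the replicate block (adjusted p = 0.000125). EIF4G1, the scaffold of the cap-binding complex, had 334 and 374 compared with 694 and 737 CPM, a log2-fold change of 1.02 (SE 0.14, adjusted p = 0.0211), and was called up with the block (adjusted p = 0.000223). TSC1, an inhibitor of mTORC1 (−0.76, adjusted p = 0.0296), was called down with the block. TSC1, MTOR (0.58), and EIF4EBP2 (−0.40), the other genes of the list with an unadjusted p below 0.05, were picked after their values were seen, and LARP1 was at 0.02. Of the 19 genes, 2 were higher and 3 lower at an unadjusted p below 0.05, compared with 13.6% and 14.7% of all genes tested. With the block, 1 was called up and 2 down, compared with 6.68% and 7.84% of all genes tested. The 3 called genes were all named for their values or p-values. A call requires an absolute log2-fold change above 0.6, and the largest among the 77 ribosomal protein genes was 0.55. Any called gene therefore exceeds them by the threshold alone.

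Of the 11 genes of RNA polymerase I and its factors, which make ribosomal RNA, 6 were above 0 with a median of 0.08 and 0 were called. UBTF, the activator of ribosomal RNA transcription, had 108 and 110 compared with 83.0 and 81.2 CPM (log2-fold change −0.41, adjusted p = 0.0725), and POLR1E, a subunit of the polymerase, 41.5 and 39.9 compared with 34.5 and 28.9 CPM (−0.36, adjusted p = 0.159). At an unadjusted p below 0.05, 2 genes were higher and 2 were lower (18.2% each), compared with 13.6% of all genes tested higher and 14.7% lower.

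**Figure D5:**
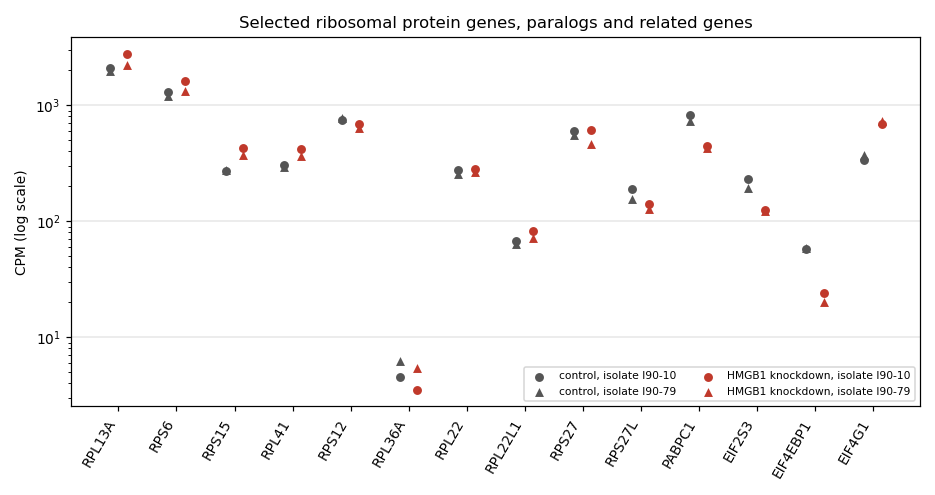
CPM (log scale, y axis) of selected ribosomal protein genes, paralogs and related genes in each of the 4 libraries. Grey symbols are controls, red symbols knockdowns, circles I90-10 and triangles I90-79. RPL13A, at 1955 to 2766 CPM, is the highest and RPL36A, at 3.53 to 6.19 CPM, the lowest, and the groups are set farthest apart in EIF4EBP1, EIF4G1, PABPC1 and EIF2S3.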

How the data were processed

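RNA-seq was measured in 4 libraries. Per the file headers, the study's methods and the submitters' processing notes, the authors mapped reads to hg19 with STAR and deposited raw counts per gene from featureCounts, counting unique reads. The deposited counts are not normalized. Versions, strand setting and pair counting are not given in the sources used here. A symbol was matched for 55665 genes.

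Counts were tested with edgeR 4.0.16 (R 4.3.3, limma 3.58.1) using filterByExpr, TMM, the quasi-likelihood test and Benjamini-Hochberg adjustment over 15398 genes, without an isolate term. The study's own thresholds were used to call a gene (adjusted p < 0.01, |log2-fold change| > 0.6). CPM are TMM-scaled, and SE is that of the fit. Changes within an isolate compare 1 library with 1. The same isolate is in both groups, so the replicate numbers pair the libraries (correlation of the isolate difference between groups 0.46 over all genes and 0.25 over the 77). The script was tested on simulated counts. Alternatives were a replicate block, DESeq2 1.42.0, RUVs with 1 factor, other scalings and filters, and leaving out each library.

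Coding sequences and their 50-base pieces come from GENCODE lifted to hg19 and the GRCh37 genome, start sites from RefSeq. Pieces across splice junctions match only processed copies. Replicates differed by far more than sampling noise.

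The genes and lists were chosen with earlier results of these data known. Named are the 6 highest and 6 lowest log2-fold changes, the 5 highest and 5 lowest levels per kb, all genes of the stalk, the 5S particle and the X chromosome, RPS6, RPSA, RPS27A, RPS3, RPL22, all paralog pairs and the 2 smallest p of each other list. Marker genes under the last part are summarised. Results of some genes under this rule are not reported here.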

Additional observations from a re-analysis of the deposited data

Results flagged for a closer look

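In 5 ribosomal protein genes the libraries of the 2 isolates moved to opposite sides, higher in I90-10 and lower in I90-79. Each value rests on 1 library per group and isolate, and the difference between the isolates was not tested.

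RPS27 had the lowest value in I90-79, with a log2-fold change of 0.02 in I90-10 and −0.24 in I90-79, and RPL38, of the large subunit, was at 0.22 and −0.13. The other 3 were close to 0 in I90-79. RPL12 was at 0.15 and −0.029, RPL28 at 0.33 and −0.017, and RPS13 at 0.15 and −0.002.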

How the results depend on the processing

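Of the 77 ribosomal protein genes, 0 were called in either direction under each of the alternatives run. Without either knockdown library 0 genes of any kind were called up or down, so these settings say nothing about the family. The counts over all genes were 10 up and 21 down in the main test, 1028 and 1207 with the replicate block, 765 and 830 with RUVs, 728 and 818 with DESeq2, 1118 and 1275 with no filter, 118 and 181 without control replicate 1, 305 and 337 without control replicate 2, 30 and 68 with bias-adjusted deviances and 31 and 98 with total counted reads only. The genes of the family with an unadjusted p below 0.05 numbered 4 in the main test, 8 with no filter, 8 with DESeq2, 32 with RUVs, 23 with the replicate block, and 0 to 3 when 1 library was left out. The median log2-fold change stayed above 0, from 0.06 to 0.29 over the left-out libraries (0.029 to 0.29 for the small and 0.084 to 0.29 for the large subunit), and was 0.25 with RUVs. The difference in the share of reads was 0.20 to 0.90 percentage points over the left-out libraries. HMGB1 ranged from −3.77 to −3.38 over them and failed the adjusted p without either knockdown library. RPL24 reversed to −0.003 with total counted reads only, and RUVs took RPS27 to 0.018 and RPL7L1 to −0.018. Leaving out 1 library also reversed RPL12 (−0.10 to 0.22), RPL24 (−0.037 to 0.11), RPL36A (−0.60 to 0.011), RPL38 (−0.10 to 0.19), RPS2 (−0.009 to 0.30), RPS27 (−0.31 to 0.084) and RPL7L1 (−0.056 to 0.18). The cause was not tested. RPL36A was counted with 102 to 228 reads per library, which limits its precision. The replicate block changed no call of a ribosomal protein gene.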
